A study of Homo sapiens with 24 samples.

Results

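The comparison asks which 3′ untranslated region (3′ UTR) fragments set reporter RNA differently in 2 human cell lines, the neuroblastoma line SH-SY5Y and SV40-immortalised microglia. Its members were the reference-allele fragments with a mean of at least 200 DNA counts in the libraries of each line, 9031 of the 11265 reference fragments in the series, from 1560 of 1637 genes. The rule used plasmid abundance only and no measure of activity. Just inside the limit were fragments of CAMTA1 (rs10492962, 200.2 counts in the line with fewer, difference between lines log2 -0.43) and BBS9 (rs3779240, 200.3 counts, -0.45). Just outside were fragments of LRP2 (rs61116673, 199.8 counts, 0.34) and MINDY2 (rs1054991, 199.7 counts, -0.18).

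A 3′ UTR lies after the stop codon of an mRNA. RNA-binding proteins and microRNAs attach to it and change how long the mRNA lasts, where it is cut and polyadenylated, and how well it is translated. Because cell types differ in these factors, the same 3′ UTR can act differently in different cells. In a massively parallel reporter assay many fragments are placed behind 1 reporter gene, the pool is transfected, and the share of each fragment in the RNA is divided by its share in the plasmid DNA. That ratio, here called activity, describes a reporter with a piece of the named gene's 3′ UTR. It is not the expression of the gene.

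There were 4 groups of 6 libraries (24 libraries), SH-SY5Y DNA, SH-SY5Y RNA, microglia DNA and microglia RNA, with 6 biological replicates per line according to the labels. All cells received the pool by lipofection, so the controls for each RNA library are plasmids recovered from transfected cells. SH-SY5Y comes from a tumour and the microglia carry a viral oncogene, which limits both as models of neurons and resting microglia. The table counts reporter oligos and not the cells' transcripts, so the identity of the lines could not be checked against their markers. The sequences and positions of the fragments were not analysed here.

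Each SH-SY5Y library held 16556722 to 19101103 counts for DNA and 11764547 to 18100832 for RNA. Microglia libraries held 12154918 to 17570853 for DNA and 7018516 to 10437069 for RNA. The median member had 271 to 403 counts in a microglia RNA library and 448 to 685 in a SH-SY5Y RNA library. The SH-SY5Y RNA was the less repeatable. The SD of activity over 6 replicates had a median of log2 0.44 in SH-SY5Y and 0.21 in microglia, and it was larger in SH-SY5Y for 91.1% of members. Same-numbered RNA libraries of the lines deviated together slightly. Read as an equal exchange of reads in both directions, this came to an estimated 1.61% to 2.99% of reads. When these were subtracted, 142 members passed and all 96 of the calls given next were among them. The subtraction takes counts of the other line from each RNA library, which by itself widens a difference already present. The larger count and the kept calls are therefore no separate support.

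Across the members activity in the 2 lines was correlated, more by value than by rank, and a small set of fragments differed past the threshold. Over the 9031 members, activity in microglia and in SH-SY5Y had a Pearson's r of 0.72 and a Spearman coefficient of 0.54, a description across fragments that share libraries and plasmid pools. Activity is 0 where the RNA and DNA shares are equal after TMM scaling, and this level is called the typical fragment here. It is not exactly the median, since the median member had an activity of 0.07 in SH-SY5Y and 0.01 in microglia. Activity passed the test against 0 in microglia for 1321 members (14.6%, beside 12.6% of all tested). Of these, 423 were above 0 (4.68% of members). In SH-SY5Y it passed for 1676 (18.6%, beside 16.7% of all tested), 940 of them above (10.4% of members). Those above were 56.1% of the calls, and 39.2% when total counts replaced TMM. The fit gives all groups 1 shared spread although the SH-SY5Y RNA was noisier. This can raise the number of calls in SH-SY5Y and lower it in microglia, so the numbers do not compare the lines. The difference in activity, microglia minus SH-SY5Y on the log2 scale, had a median of -0.08, and 95% of members lay between -0.74 and 0.55. It passed the threshold (edgeR quasi-likelihood test, Benjamini-Hochberg adjusted p under 0.05) for 96 members (1.06%), 85 lower and 11 higher in microglia, from 90 genes. Of all 10948 reference fragments tested, 108 (0.986%) passed, 85 lower (0.776%) and 23 higher (0.21%). The size among the called members had a median of log2 0.78 and ran from 0.39 to 2.59. A further 48 members differed by more than log2 1 without passing, 33 lower and 15 higher. The 6 values of one line did not overlap the 6 of the other for 75 of the 96 calls (78.1%), against 205 of all members (2.27%) and 2.31% of all tested fragments. Of the 205, 61 were higher in microglia (0.675% of members). The calls were chosen by a test on the same libraries, so the larger share without overlap among them is no separate support.

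The split between lower and higher depended on how the lines were scaled and on the tool. With total counts in place of TMM 50 members passed, 35 lower and 15 higher (30.0% higher, against 11.5%). With the median difference set to 0 there were 51, 38 lower and 13 higher (25.5% higher). Limma on log2 ratios, which gives each line its own spread, called 27, 13 lower and 14 higher (51.9% higher), and limma voom with a spread per group called 68, 61 lower and 7 higher. The median difference of the members was -0.02 with limma on log2 ratios and 0.00 with total counts. Of the 40 fragments named here, 13 passed with limma on log2 ratios, those of TREML2, TMEM179B, ARHGAP40, GIN1, ATXN3, KCTD10, IP6K3, APTX, SP4, MDGA1, IP6K2 and ACSM1 and rs879080031 of ZNF589, and 27 did not. With total counts 29 passed. The 11 that did not were the fragments of ZKSCAN4, FBXL17, TRIM11, MS4A2, KHDRBS2, TTYH3, DUSP15, CHRNB4, SEMA4F and PPME1 and rs114547396 of ZNF589. The number of calls over all members was 43 without replicate 1, 44 without replicate 2, 61 without replicate 4, 60 without replicate 5, 58 without replicate 6 and 85 without replicate 3. Each of these fits drops the replicate number from all 4 groups, so a lost call can also come from having fewer libraries.

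Few plasmid shares differed past the threshold when tested in the same fit. The DNA share did so between lines for 5 of 9031 members (0.0554%), against 9 of all tested fragments (0.0822%). This fit gives DNA and RNA libraries 1 shared spread, which the noisier SH-SY5Y RNA widens, so it can miss a DNA difference. DNA ranges of the IGF2BP1 and IP6K2 fragments, given below, did not overlap between lines although neither passed. The same held for the EXOG fragment with rs13317543 (DNA difference log2 0.53), which was called lower in microglia. The part of the EXOG plasmid difference in its result was not tested. Of the 96 called members, 1 was among the 5, the fragment of ACSM1 described below. The RNA share differed in the same direction as the activity for all 96. The RNA share is part of the activity, so choosing members by the activity difference largely fixes this count, which is no separate support.

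Each called member had 1 to 3 alternative oligos in the pool, separate plasmids that carry the same fragment with another allele. They were not used to choose or call the members, but they were counted in the same libraries, and sequencing errors at the variant can move reads between alleles. The 96 called fragments had 124 alternative oligos. Of these, 115 differed between lines in the same direction as the reference, and 31 passed the threshold themselves, all in the same direction. Of all 13151 alternative oligos tested 0.776% passed (0.86% of those with a mean of at least 200 DNA counts in each line), and 60.1% of those belonging to members lay below 0. For the members called lower in microglia, 106 of 112 alternative oligos were also below 0, with a median of -0.53 beside a median of -0.77 for their references. For the members called higher, 9 of 12 were above 0, with a median of 0.40 beside 1.13. Over 9870 well-covered alternative oligos of members, their difference correlated with that of the reference with Pearson's r = 0.33, again a description. In the 24 fragments where both alleles passed, 23 were lower in microglia and 1, of SP4, was higher.

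The fragment of TREML2 with rs112522404 differed most. TREML2 belongs to the TREM family of myeloid cell surface receptors and lies on chromosome 6 from 41189749 to 41201149 (GRCh38.p14). Its plasmid share was alike in the lines, with 35.2, 38.3 and 42.3 CPM (counts scaled to a common library total after TMM; lowest, median and highest library) in SH-SY5Y DNA and 30.3, 37.0 and 44.9 in microglia DNA. In RNA it reached 345.6, 400.5 and 461.6 CPM in SH-SY5Y and 49.96, 67.1 and 79.9 in microglia. The groups lay far apart, with every SH-SY5Y library above every microglia library. Activity was log2 3.40 ± 0.16 (SD, n = 6) in SH-SY5Y and 0.81 ± 0.25 in microglia, so the fragment was above the typical fragment in both lines and 6.01-fold lower in microglia (log2 -2.59, SE 0.14, adjusted p = 9.44e-15). The G allele of the same fragment gave -2.48 (SE 0.12). The other 13 members from TREML2 had differences from -0.44 to 0.42, with a median of -0.21.

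The fragment of TMEM179B with rs2584916 was called below the typical fragment in microglia and not called either way in SH-SY5Y. TMEM179B encodes a membrane protein (chromosome 11, 62787402 to 62790400). RNA stood at 60.0, 63.5 and 86.0 CPM in SH-SY5Y and at 13.8, 17.6 and 23.3 in microglia, while DNA medians were 49.0 and 54.9. No microglia RNA library came near the SH-SY5Y ones. Activity was log2 0.41 ± 0.20 and -1.64 ± 0.31, a difference of -2.05 (SE 0.21, adjusted p = 1.25e-07), and the G allele gave -1.95.

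The 5 fragments of ARHGAP40, TAF6, RASIP1, ZNF589 and PPME1 carried activity calls of opposite sign in the 2 lines, above the typical fragment in SH-SY5Y and below it in microglia. The SH-SY5Y calls of TAF6, RASIP1 and PPME1 were close to the threshold (edgeR adjusted p = 0.0475, 0.0416 and 0.0422). Calls above 0 in SH-SY5Y also depended on the scaling, as given above. ARHGAP40, a gene for a GTPase-activating protein (chromosome 20, 38601809 to 38650653), had activities of 0.70, 0.98 and 1.51 (lowest, median, highest) in SH-SY5Y and -0.65, -0.44 and -0.14 in microglia for the fragment with rs6027039. The ranges were well separated, and the difference was -1.52 (SE 0.15, adjusted p = 4.91e-08), with -1.65 for the T allele. TAF6, which encodes a subunit of the general transcription factor TFIID (chromosome 7, 100107070 to 100127171), had 0.06, 0.49 and 1.11 in SH-SY5Y and -1.65, -1.14 and -0.45 in microglia for rs13309 (difference -1.58, SE 0.29). Its A allele gave -0.79 (SE 0.28, adjusted p = 0.217).

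RASIP1, a Ras-interacting protein gene of the endothelium (chromosome 19, 48720585 to 48740610), differed by -1.56 (SE 0.34) at rs77294797. Its ranges overlapped, from -0.07 to 1.38 in SH-SY5Y and from -1.72 to -0.0040 in microglia. Leaving out replicate 1, 2 or 4 ended its call (differences of -1.80 to -1.38 over the 6 such fits), while its C allele passed with -1.27 (adjusted p = 8.37e-04). ZNF589, a zinc finger gene (chromosome 3, 48241104 to 48270990), had -0.14, 0.57 and 0.82 in SH-SY5Y and -0.72, -0.56 and -0.47 in microglia for rs879080031 (difference -1.09, SE 0.16, adjusted p = 9.03e-05). Its T allele gave -0.49. PPME1, which encodes a methylesterase of protein phosphatase 2A, showed the smallest called difference at rs17132882 (-0.39, SE 0.09), on 4361 mean DNA counts in SH-SY5Y, and lost the call without replicate 1, 2, 4 or 6 (-0.45 to -0.33). It was also lost with total counts (-0.30, adjusted p = 0.119) and with limma on log2 ratios (adjusted p = 0.17), and its A allele gave -0.28 (adjusted p = 0.212). No member was called above in microglia and below in SH-SY5Y.

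A further set was above the typical fragment in SH-SY5Y and nearer to it in microglia. GIN1, which encodes a protein related to retroviral integrases (chromosome 5, 103086000 to 103120138), had activities of 0.84, 1.21 and 1.42 in SH-SY5Y and -0.41, -0.01 and 0.20 in microglia at rs257316. The difference was -1.23 (SE 0.19, adjusted p = 2.52e-04), and the A allele gave -0.50 (SE 0.26). ATXN3, the gene of the deubiquitinase expanded in Machado-Joseph disease (chromosome 14, 92044775 to 92106582), stood at 1.06, 1.25 and 1.37 in SH-SY5Y and at 0.15, 0.25 and 0.55 in microglia at rs1134377 (difference -0.93, SE 0.13). Its G allele gave -0.69 (adjusted p = 0.0915). Its groups did not overlap, and the other 18 members of ATXN3 ran from -0.66 to 0.42. KCTD10, an adaptor of CUL3 ubiquitin ligases (chromosome 12, 109448655 to 109477300), was measured at 0.93, 1.04 and 1.16 in SH-SY5Y and 0.09, 0.14 and 0.41 in microglia at rs11540749. With 34870 RNA counts in SH-SY5Y and 12987 in microglia over the 6 libraries, its difference of -0.85 had an SE of 0.08 (adjusted p = 2.91e-08). The A allele of KCTD10 gave -0.41 (adjusted p = 0.0595). NEU1, the lysosomal sialidase gene, followed at rs13118 (0.51 ± 0.13 in SH-SY5Y, -0.12 ± 0.19 in microglia, difference -0.63). Its A and C alleles gave -0.31 and -0.17, neither past the threshold, and limma on log2 ratios gave the reference an adjusted p of 0.0993. SEMA4F, a semaphorin gene, differed by -0.39 at rs363643 (0.24 ± 0.17 and -0.15 ± 0.07) and its A allele by -0.20 (adjusted p = 0.713). SEMA4F lost its call with each replicate left out (-0.43 to -0.36).

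A larger set was below the typical fragment in both lines and further below it in microglia. Of the 85 members lower in microglia, 27 were called below the typical fragment in both lines, 31 in microglia alone, 17 were called above in SH-SY5Y alone, 5 above in both and 5 on opposite sides. ITGA11, an integrin subunit gene (chromosome 15, 68296532 to 68432163), had activities of -1.57, -1.02 and -0.72 in SH-SY5Y and -2.50, -2.13 and -1.82 in microglia at rs10851784. The ranges did not meet, and the difference was -1.08 (SE 0.16, adjusted p = 1.06e-04). Its A and C alleles gave -0.86 and -0.93, both past the threshold. PSMA4, a subunit gene of the 20S proteasome (chromosome 15, 78540405 to 78552417), had -1.25, -1.01 and -0.94 in SH-SY5Y against -2.43, -2.08 and -1.47 at rs1052035 (difference -0.96, SE 0.16), and -0.89 with its C allele (adjusted p = 9.44e-04).

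DRC3, a gene of the dynein regulatory complex of cilia (chromosome 17, 17972813 to 18016889), ran from -1.06 to -0.52 in SH-SY5Y and from -2.98 to -1.49 in microglia at rs12150369 (difference -1.30, SE 0.26). Its A allele gave -0.62 (adjusted p = 0.602), and limma on log2 ratios gave the reference an adjusted p of 0.147. TMEM161B (chromosome 5, 88185570 to 88268845) had -1.10 to -0.28 in SH-SY5Y and -1.89 to -1.25 in microglia at rs2162714 (difference -1.03, SE 0.17), and its G allele gave -0.66 (adjusted p = 0.212). ZKSCAN4, a zinc finger gene of the extended MHC region, differed by -0.98 (SE 0.24, adjusted p = 0.0332) at rs7757215, a call lost with each replicate left out (-1.07 to -0.91), and by -0.77 with its T allele (adjusted p = 0.362).

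SLC39A8, a zinc and manganese importer gene (chromosome 4, 102251041 to 102345482), differed by -1.13 (SE 0.25) at rs35608353, from -0.80 ± 0.42 in SH-SY5Y to -1.93 ± 0.46 in microglia. The ranges overlapped by a narrow margin, at -1.34 in the lowest SH-SY5Y library and -1.32 in the highest microglia library. The 3 alternative alleles of this fragment gave -1.02, -0.90 and -1.10, and 2 of them passed. The reference call was lost without replicate 1, 2, 3 or 6 (-1.37 to -1.004), and the other 24 members of SLC39A8 had a median of -0.14. TRIM11, a ubiquitin ligase gene of the TRIM family, differed by -0.81 (SE 0.18) at rs79654767, while its C allele gave -0.13 (SE 0.12). DUSP15, a dual-specificity phosphatase gene, differed by -0.66 (SE 0.16) at rs76833217 and by -0.42 with its T allele (adjusted p = 0.136). The call of TRIM11 was lost without replicate 1, 3, 4 or 5 (-0.91 to -0.74), and that of DUSP15 without 1, 2 or 5 (-0.78 to -0.54).

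The lowest members also had lower activity in microglia when they were chosen by their alternative oligos alone. For 317 members whose well-covered alternative oligos had a mean activity under log2 -1 over both lines, the reference fragments had a median of -1.04 in SH-SY5Y and -1.56 in microglia. The median over these fragments lay between -1.16 and -1.001 in the 6 SH-SY5Y replicates and between -1.73 and -1.29 in the 6 microglia replicates, with no overlap. Their differences had a median of -0.43, and 89.9% were below 0. With total counts the median was -0.34, 84.5% were below 0, and the ranges still did not overlap. For 411 members with alternative oligos between -1 and -0.5, replicate medians ran from -0.54 to -0.43 in SH-SY5Y and from -0.72 to -0.57 in microglia, and the median difference was -0.23. With total counts that median was -0.14 and the ranges overlapped. For 685 members between -0.5 and -0.25 the median difference was -0.09 and the replicate ranges overlapped. For the 2133 members between -0.25 and 0 and the 3419 between 0 and 0.25 the median differences were -0.08 and -0.06. Their sign turned with total counts (0.01 and 0.02). The replicate ranges of both sets did not overlap either, lower in microglia with TMM and higher with total counts. For 1242 members between 0.25 and 0.5 the median difference was -0.05 (0.04 with total counts). Their ranges overlapped with TMM and lay apart, higher in microglia, with total counts. Ranges without overlap were thus not particular to low members. In the 109 members whose alternative oligos were above 0.5, the median difference was -0.01 (0.08 with total counts) and the replicate ranges overlapped, from 0.32 to 0.44 in SH-SY5Y and from 0.34 to 0.42 in microglia. Calls followed the same order among low fragments, with 6.94% of the lowest set called and 1.03% of the members between -0.25 and 0, while 5.5% of those above 0.5 were called. These sets share libraries, so the orders are descriptions.

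The 11 fragments called higher in microglia were called below the typical fragment in SH-SY5Y in 6 cases, not called there in 4 and above it in 1. IP6K3, an inositol hexakisphosphate kinase gene (chromosome 6, 33721662 to 33762145), had activities of -1.82, -1.01 and -0.44 in SH-SY5Y and 0.13, 0.20 and 0.30 in microglia at rs78602149. The microglia libraries lay close together and none overlapped SH-SY5Y. The difference was 1.18 (SE 0.19, adjusted p = 4.66e-04), with 0.52 (SE 0.23) for the C allele. SP4, a brain-enriched transcription factor of the Sp family (chromosome 7, 21428083 to 21514822), had -0.59, -0.31 and -0.05 in SH-SY5Y and 0.26, 0.56 and 0.78 in microglia at rs10241028 (difference 0.84, SE 0.17). Its C allele passed as well, with 0.63 (adjusted p = 0.00609). TSNARE1, a gene with a SNARE domain known from schizophrenia association studies, differed by 0.63 (SE 0.11, adjusted p = 0.00209) at rs67717665, from 0.05 ± 0.22 in SH-SY5Y to 0.69 ± 0.14 in microglia, and by 0.47 for its G allele.

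ACSM1, a medium-chain acyl-CoA synthetase gene (chromosome 16, 20623235 to 20697680), had the highest difference, 2.19 (SE 0.35, adjusted p = 4.04e-04), at rs189249655. It is also the called member whose plasmid share differed past the threshold between lines. That share was 9.25, 13.1 and 14.9 CPM in SH-SY5Y DNA and 24.3, 28.0 and 44.2 in microglia DNA. RNA stood at 0.89, 2.07 and 3.05 CPM in SH-SY5Y, on 176 counts in all, and at 19.2, 21.5 and 34.6 in microglia. The part of the plasmid difference in this result was not tested. Its T allele gave 1.45 (SE 0.51, adjusted p = 0.203). With RNA alone the difference was 3.52, and limma voom with a spread per group gave 2.29 (adjusted p = 0.378).

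The remaining higher fragments rested on fewer counts or lost their calls in some fits with 1 replicate left out. SPTSSB, a subunit gene of serine palmitoyltransferase, differed by 1.32 (SE 0.34, adjusted p = 0.047) at rs163327, with SH-SY5Y replicate 6 at -3.62 and the median at -1.15. Its A allele gave -0.55 and its C allele 0.33. IP6K2, another inositol hexakisphosphate kinase gene, differed by 1.28 at rs72929172, and its C allele by 1.23 (SE 0.52). The plasmid share of the IP6K2 reference ran from 15.5 to 17.9 CPM in SH-SY5Y and from 18.8 to 23.3 in microglia, without overlap. MDGA1, a synaptic adhesion regulator, differed by 1.19 at rs12191311 and its A allele by -0.19. IGF2BP1, an mRNA-binding protein gene, was below the typical fragment in both lines at rs557502783 (-1.76 ± 0.19 in SH-SY5Y, -0.68 ± 0.31 in microglia). It differed by 1.08, and its A allele by 0.58 (adjusted p = 0.553). The plasmid share of the IGF2BP1 reference ran from 20.2 to 23.1 CPM in SH-SY5Y and from 24.3 to 30.3 in microglia, also without overlap. The part of these plasmid differences in the results was not tested. APTX, a DNA repair gene, differed by 0.76 at rs62542042, with -0.02 for its T allele. PPP2R2D, a regulatory subunit gene of protein phosphatase 2A, was above the typical fragment in both lines at rs117262064 (0.32 ± 0.28 and 0.93 ± 0.12, with overlapping ranges), and B3GLCT, a glucosyltransferase gene, in microglia at rs912603 (0.58 ± 0.07). They differed by 0.61 and 0.55, and their T and A alleles by 0.33 and 0.12, neither past the threshold. Leaving out 1 replicate ended the calls of SPTSSB in 5 of 6 fits (1.15 to 1.51), IP6K2 in 5 (1.14 to 1.51), MDGA1 in 5 (1.01 to 1.496), IGF2BP1 in 5 (0.98 to 1.21), APTX in 6 (0.66 to 0.83), PPP2R2D in 4 (0.52 to 0.80) and B3GLCT in 4 (0.44 to 0.65).

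Counts in lists of genes by function are read beside the 1.06% of all members that passed, and no list was tested. None of 205 fragments of HLA and antigen presentation genes passed (median difference -0.11), and none of 171 fragments of cytokine and innate immune genes (-0.08), with 23 and 14 at an unadjusted p under 0.05 beside 11.8% of all members. Among 70 fragments of microglia and phagocyte genes 2 (2.86%) were lower in microglia, TREML2 and MS4A2 (rs512555, -0.79, SE 0.18), a subunit gene of the IgE receptor of mast cells. The MS4A2 call was lost without replicate 2, 4 or 5 (-0.84 to -0.70), and its T allele gave -0.09. TRIM genes had 1 of 128 and lysosome and autophagy genes 2 of 121, NEU1 and TFEB (rs75080302, -0.82, SE 0.18), the transcription factor that switches on lysosomal genes. TFEB was lost without replicate 1, 2 or 5 (-0.90 to -0.77), and its A and T alleles gave -0.70 and -0.76.

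Among lists of neuronal and disease genes, shares called ran from 0 to 3.03%, on both sides of the 1.06% of all members. None of 123 fragments of GABA and glutamate receptor genes passed, with 9 at an unadjusted p under 0.05. Of 106 fragments of neuronal cytoskeleton and axon genes 1 passed, that of SEMA4F, and of 95 ion channel fragments 1, that of TTYH3 (rs55930249, -0.69, SE 0.16), a chloride channel family gene. CHRNB4, a nicotinic receptor subunit gene, gave the 1 call of 33 fragments of monoamine, opioid, cannabinoid and cholinergic genes (rs112636372, -0.54, SE 0.13). TSNARE1 was the 1 call of 87 synaptic vesicle and scaffold fragments. Psychiatric risk genes had 7 of 354, 5 lower and 2 higher, Parkinson disease genes 2 of 255, both higher (IP6K2 and SPTSSB), Alzheimer disease genes 1 of 120 (TREML2) and ALS and frontotemporal dementia genes 1 of 80 (ATXN3). TTYH3 lost its call without replicate 1, 2, 3 or 6 (-0.78 to -0.63) and CHRNB4 without 1, 2 or 4 (-0.58 to -0.49). The A allele of TTYH3 gave -0.48 and the T allele of CHRNB4 -0.18, neither past the threshold.

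The other lists, again beside 1.06% of all members, had from 0 to 1.82% called. RNA-binding and microRNA protein genes had 2 of 110, IGF2BP1 higher and KHDRBS2 (rs77089428, -0.77, SE 0.19) lower. Ubiquitin ligase and deubiquitinase genes had 3 of 217, KCTD10, FBXL17 (rs61749621, -0.84, SE 0.18) and FBXL18 (rs114764277, -0.73, SE 0.15), the last 2 genes of F-box proteins. The T allele of FBXL17 passed as well (-0.94, adjusted p = 0.00204). The other alleles of FBXL18 (-0.34), KHDRBS2 (-0.42), SLC4A8 (-0.24) and rs114547396 of ZNF589 (-0.20) did not pass, with adjusted p-values from 0.588 to 0.926. Solute carriers had 2 of 189, SLC39A8 and SLC4A8 (rs9409, -0.82, SE 0.17), a sodium-driven bicarbonate exchanger gene. Zinc finger genes had 4 of 388, all lower, 2 of them from ZNF589 (the other at rs114547396, -0.62, SE 0.14), and MAP kinase and phosphatase genes 2 of 147, DUSP15 and PPP2R2D. None of 19 fragments from 6 alcohol and aldehyde metabolism genes passed, with a median difference of -0.40, 3 of them at an unadjusted p under 0.05, and none of 4 histone fragments passed. Calls in this group were lost with 1 replicate left out for KHDRBS2 in 5 of 6 fits (-0.86 to -0.67), SLC4A8 in 3 (-0.92 to -0.66), FBXL17 in 2 (-0.90 to -0.76), FBXL18 in 1 (-0.77 to -0.67) and the second ZNF589 fragment in 4 (-0.74 to -0.52).

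Members of the same gene spread about as widely as members of different genes. Over 978 genes with at least 3 members (8212 members), the SD of the difference within a gene was log2 0.31, the same as the SD over all of these members (0.31). Measurement error is part of both SDs, since the SE of a difference had a median of 0.24 over all members. Their likeness therefore says little about whether fragments of a gene act alike. Only 6 genes had 2 called members, among them LOC101929705, SPECC1, TMEM161B, ZCCHC17 and ZNF589, no gene had 3, and no gene had calls in both directions. Among 90 called members with other members in the same gene, the median of those others lay on the same side of the typical difference in 48. Whether fragments of a gene overlap in sequence was not analysed here.

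Calls came mostly from fragments that were abundant in the pool. Of the 3010 members with the highest DNA counts (at least 816.2 in the line with fewer) 74 passed (2.46%), 4 of them higher in microglia, with a median size of log2 0.70. Of the 3010 in the middle 14 passed (0.465%), 3 higher, and of the 3011 with the lowest 8 passed (0.266%), 4 higher, with a median size of 1.42. The median SD of activity in SH-SY5Y was 0.64 in the lowest and 0.31 in the highest of these sets. By reference base, 13 of 2073 fragments with A passed (0.627%), 30 of 2512 with C (1.19%), 33 of 2637 with G (1.25%) and 20 of 1809 with T (1.11%).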

How the data were processed

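The deposited file holds whole-number counts per variant and allele for 24 libraries, not scaled for depth, per the file headers and values. The submitters' processing notes name cutadapt 2.7, UMI-tools 1.0.0, Bowtie2 and SAMtools 1.10 with build hg38. The primer for reverse transcription held a molecular identifier, per the labels' protocols. Whether DNA counts were collapsed, and the mapping settings, are not given in the sources used here. Counting error is therefore a lower limit on the error.

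Each rs number gave 1 reference row. Libraries were scaled by TMM over all reference and alternative oligos. Rows with a mean of at least 10 DNA counts in each line (10948 reference, 13151 alternative, fitted separately) entered edgeR 4.0.16 (quasi-likelihood test, R 4.3.3) with 4 group means. The contrast was RNA over DNA in microglia minus that in SH-SY5Y, adjusted by Benjamini-Hochberg over all rows fitted (threshold 0.05). Activity per replicate is log2 RNA minus the mean log2 of the line's 6 DNA libraries (pseudocount 0.5 counts), and ± is its SD. The activity itself and SE come from the fit. CPM values use TMM-scaled totals. DESeq2 1.42.0 and limma 3.58.1 were alternatives. The code was tested on simulated data.

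No pair of replicates matched within sampling noise. Chi-square over degrees of freedom was 4.25 to 5.23 in SH-SY5Y DNA and 39.4 to 75.1 in SH-SY5Y RNA. It was 12.7 to 17.4 in microglia DNA and 6.53 to 10.7 in microglia RNA. The main fit nevertheless gave all 4 groups 1 shared estimate of the spread. Named fragments are the 12 highest and 12 lowest calls without overlap between lines (1 per gene and direction; 10 higher qualified), up to 6 with opposite activity calls, and up to 3 calls from each of 21 gene lists. A fragment that met this rule is not reported here. The members and lists were chosen with earlier results of these data known, and no list was tested. An ion channel pattern that wrongly took in TMEM161B was removed from its list after the data were seen. Of the 1560 gene names, 1477 were current symbols in RefSeq (GRCh38.p14), 70 older symbols of 1 gene, 4 of several and 9 unmatched; coordinates are the gene's.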

Additional observations from a re-analysis of the deposited data

Results flagged for a closer look

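The lines differed, by the interaction term of the edgeR fit, for each of the 40 named fragments. Passing this test was part of the rule that named them, so the count is no finding of its own. The differences (log2, microglia minus SH-SY5Y) were -2.59 for TREML2, -2.05 for TMEM179B, -1.58 for TAF6, -1.56 for RASIP1, -1.52 for ARHGAP40, -1.30 for DRC3, -1.23 for GIN1, -1.13 for SLC39A8, -1.09 and -0.62 for the ZNF589 fragments, -1.08 for ITGA11, -1.03 for TMEM161B and -0.98 for ZKSCAN4. They were -0.96 for PSMA4, -0.93 for ATXN3, -0.85 for KCTD10, -0.84 for FBXL17, -0.82 for TFEB, -0.82 for SLC4A8, -0.81 for TRIM11, -0.79 for MS4A2, -0.77 for KHDRBS2, -0.73 for FBXL18, -0.69 for TTYH3, -0.66 for DUSP15, -0.63 for NEU1, -0.54 for CHRNB4, -0.39 for SEMA4F and -0.39 for PPME1. The higher ones were 0.55 for B3GLCT, 0.61 for PPP2R2D, 0.63 for TSNARE1, 0.76 for APTX, 0.84 for SP4, 1.08 for IGF2BP1, 1.18 for IP6K3, 1.19 for MDGA1, 1.28 for IP6K2, 1.32 for SPTSSB and 2.19 for ACSM1.

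Of 80 groups of 6 activities, 6 held a value far from the other 5, where chance gives about 1 in 20 groups. In SH-SY5Y these were replicate 1 of TMEM179B (0.79) and of FBXL18 (0.36) and replicate 6 of SPTSSB (-3.62). In microglia they were replicate 6 of TRIM11 (-2.26) and of FBXL18 (-0.97) and replicate 1 of SEMA4F (-0.29).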

How the results depend on the processing

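None of the 40 named differences changed sign in any of the 17 alternatives run for each. The fragments were named by their differences in the same libraries, so the kept signs are no separate support. Only 8 passed in all 17 (TREML2, TMEM179B, ARHGAP40, GIN1, ATXN3, KCTD10, IP6K3 and ZNF589 rs879080031). The count of 96 members was 50 with total counts, 51 with the median difference set to 0, 189 with DESeq2 (all 96 among them), 27 with limma on log2 ratios (18 of the 96), 988 with RNA alone, and from 43 to 85 with 1 replicate left out. The cause was not tested. Limma on log2 ratios takes the DNA mean as free of error, and RNA alone takes out the DNA. Setting the median to 0, limma voom and the fits of activity and DNA share were added after seeing the data. The replicate block gave 61 calls, 58 of them among the 96, and 11 named calls were lost. Same-numbered DNA and RNA libraries correlated by 0.019 to 0.066 in deviations, so the numbers were not taken as pairs, although every library correlated best with its own number, also between lines (0.052 to 0.107 for RNA). The tested alternative oligos of members had 93 calls, 77 with total counts (31.2% higher in microglia, against 11.8%), 228 with DESeq2 and 65 to 94 with 1 replicate left out. Members with a called DNA difference numbered 5, and 1 to 6 with 1 replicate left out. SH-SY5Y activity calls numbered 1676 (56.1% above) and 1413 with total counts (39.2% above). The other alternatives for the 96 gave 68 to 142 calls. Over members ordered by their alternative oligos, total counts were also added after seeing the data. What depth contributes to the few calls among less abundant members was not tested.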
